A study of Homo sapiens with 12 samples.

Results

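The genes that copy DNA in S phase were examined in A375 human melanoma cells carrying YAP mutants. The list held 46 genes, taken by name for their part in DNA replication, with earlier results of these data known. Each was found by its symbol on 1 locus of the expression table, and none shared its locus with another symbol. The table held 31585 distinct loci, of which 15055 passed the filter on low values (3 or more libraries at 1 FPKM or above). All 46 genes passed this filter and were above 0 in every library. FPKM is the number of fragments of a transcript scaled to its length and to the mapped fragments of the library.

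A375 is an established melanoma line. All 4 groups were made by retroviral infection with the MSCV-IRES-Hygro vector and selection in hygromycin, so Control cells went through the same steps with an empty vector. The other groups carried human YAP with S127A (YAPS127A), with S127A and S94A (YAPS127A,S94A) or with S127A and S381A (YAP2SA). S127 and S381 are sites at which the Hippo kinases LATS1 and LATS2 restrain YAP, and S94 lies in the surface that binds the TEAD transcription factors. Cells were plated at about 60% confluence on plastic, and RNA was taken 24 h later by the series record, whereas the study's methods give another time. RNA was sequenced from 3 plates of each group, 12 libraries in all. Each group was 1 stably transduced population, so the p-values measure the spread between plates and not between separately made lines. The condition field of the YAP2SA samples and the design text of the series also list S94A for this form while the sample titles do not, and the samples were grouped by title.

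Before S phase, the origin recognition complex, CDC6 and CDT1 load the MCM helicase onto DNA, and geminin (GMNN) blocks CDT1 so that each origin is used only once. CDC7 kinase, CDC45, MCM10 and the GINS complex then turn the helicase on. DNA is unwound and coated by RPA, primed by polymerase alpha with primase, and copied by polymerases delta and epsilon on the PCNA clamp, which RFC loads. FEN1 and LIG1 join the lagging strand pieces, the nucleotide enzymes supply the building blocks, and CHAF1A, CHAF1B and UHRF1 rebuild chromatin and keep its methylation. Many of these genes are transcribed by E2F factors at the G1 to S transition.

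YAP1 itself was read first, as a check of the labels. The libraries labelled Control held 34.1, 33.0 and 172 FPKM of YAP1, and the 9 mutant libraries held between 130 and 187 FPKM. The library labelled Control replicate 3 was therefore within the range of the mutants. It also had the lowest of the 3 Control values for 39 of the 46 replication genes and the highest for none of them. The main counts and medians against Control are therefore given with and without it. Single genes of the list are given both ways where their call or sign between YAP2SA and Control changed. Without read counts the sequencing depth could not be stated. The number of loci above 0 ran from 20161 to 20656 over the 12 libraries. Of 10 melanocyte lineage markers, 5 had a mean over 1 FPKM, MITF, SOX10, PAX3, S100B and S100A1, whereas the pigment genes PMEL, MLANA, TYR, DCT and TYRP1 were below 1 FPKM in every library. Summed over the list, these markers lay between 372 and 460 FPKM in Control, 276 and 355 in YAPS127A, 449 and 472 in YAPS127A,S94A, and 49.3 and 57.8 in YAP2SA. SOX10, a neural crest transcription factor, held between 234 and 281 FPKM in Control and between 4.53 and 7.25 FPKM in YAP2SA. The members of the list did not move together, since MITF, the master regulator of melanocytes, held between 5.01 and 11 FPKM in Control and between 30.1 and 41.0 FPKM in YAP2SA, and PAX3 held between 5.62 and 6.02 FPKM and between 5.65 and 7.88 FPKM. The summed fibroblast markers rose from between 1.69 and 2.92 FPKM in Control to between 31.2 and 38.9 FPKM in YAP2SA, mostly through COL1A1. COL1A1 alone held between 27.9 and 36.3 FPKM in YAP2SA. LUM held between 1.13 and 1.79 FPKM in Control and between 1.91 and 2.86 FPKM in YAP2SA. COL3A1 and DCN were below 1 FPKM, and DCN was lower in YAP2SA. Of the keratinocyte markers, KRT14 fell from between 6.16 and 7.62 FPKM to between 0.362 and 0.551 FPKM. KRT5 rose from at most 0.0777 FPKM to between 1.37 and 1.67 FPKM. The part of these differences in the results on replication genes was not tested.

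The promoters were searched for short words bound by E2F, by the CCAAT factor NF-Y and by TEAD, because E2F targets are frequent among replication genes and TEAD binding is what S94A removes. RefSeq windows on GRCh38.p14, from 250 bases before to 50 after each start, were found for 40 of the 46 genes. An E2F word (TTTCCCGC, TTTCGCGC, TTTGCCGC or TTTGGCGC on either strand, of which some overlap in one stretch) stood in the windows of 23 of the 40 genes, 57.5%, and in those of 3.99% of all 27305 genes of the table. CCAAT stood in 57.5% of the 40 against 39.7% of all genes, and the TEAD word GGAATG in 8 of the 40 against 16.7% of all genes. To let the words be compared with the expression values, the sequence around the word is given for 6 genes. Only words before the most upstream start of a gene were used. Genes with a word elsewhere in their windows, such as GINS3 with a log2 difference of -0.09, were left out. Sequences are given first for the 3 remaining genes with the largest and then for the 3 with the smallest difference between YAP2SA and Control. Each is 30 bases, 5′ to 3′ on the strand of the gene, with the E2F word in capitals.
GINS2: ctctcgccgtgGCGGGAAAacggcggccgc
LIG1: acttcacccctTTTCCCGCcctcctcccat
UHRF1: caaatgccgagttttcGCGGGAAAaaaatc
E2F2: gcggcacgacgTTTGGCGCtaaaaaaaaaa
RFC3: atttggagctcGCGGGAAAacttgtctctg
TYMS: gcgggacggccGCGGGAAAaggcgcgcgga
These lie at chr16:85688967-85688996 (minus strand), chr19:48170440-48170469 (minus), chr19:4909471-4909500 (plus), chr1:23531257-23531286 (minus), chr13:33818083-33818112 (plus) and chr18:657603-657632 (plus). The same word, GCGGGAAA, thus stood upstream of GINS2 and UHRF1, among the larger differences, and of RFC3 and TYMS, among the smallest. By count, an E2F word was present in 14 of the 27 genes that were higher in YAP2SA than in Control, 51.9%, and in 9 of the 13 that did not pass the test, 69.2%. The median log2 difference was 0.38 for genes with the word and 0.41 for those without. A word is only a match of letters, and binding was not measured.

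To ask how the replication genes responded to YAP freed from both phosphorylation sites, YAP2SA was compared with Control. With limma and Benjamini-Hochberg adjustment over the 15055 loci, 30 of the 46 genes were higher in YAP2SA at an adjusted p under 0.05, 65.2%, where 22.9% of all loci tested were higher. None was lower, also at an unadjusted p under 0.05, while 19.5% of all loci were lower. The differences were mostly small but varied from gene to gene, with log2 differences from -0.10 to 1.12. Their median was 0.39 over the 46 genes, against 0.01 over all loci. A total of 33 genes had all 3 YAP2SA libraries above all 3 Control libraries, which held for 28.0% of all loci. Only 1 gene, TK1, changed by more than 2-fold, a size that 7.59% of all loci passed upwards with the test. Without the library labelled Control replicate 3, 26 genes were higher, 56.5% against 19.8% of all loci, none was lower, also at an unadjusted p under 0.05, and the median was 0.32. The 4 calls lost were GINS1, MCM10, PRIM2 and RFC5. Of the called genes whose values per library are given, the highest adjusted p without it by limma was 0.0324, for MCM7. For bulk RNA, more cells in S phase and more RNA per cell cannot be told apart.

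**Figure D1:**
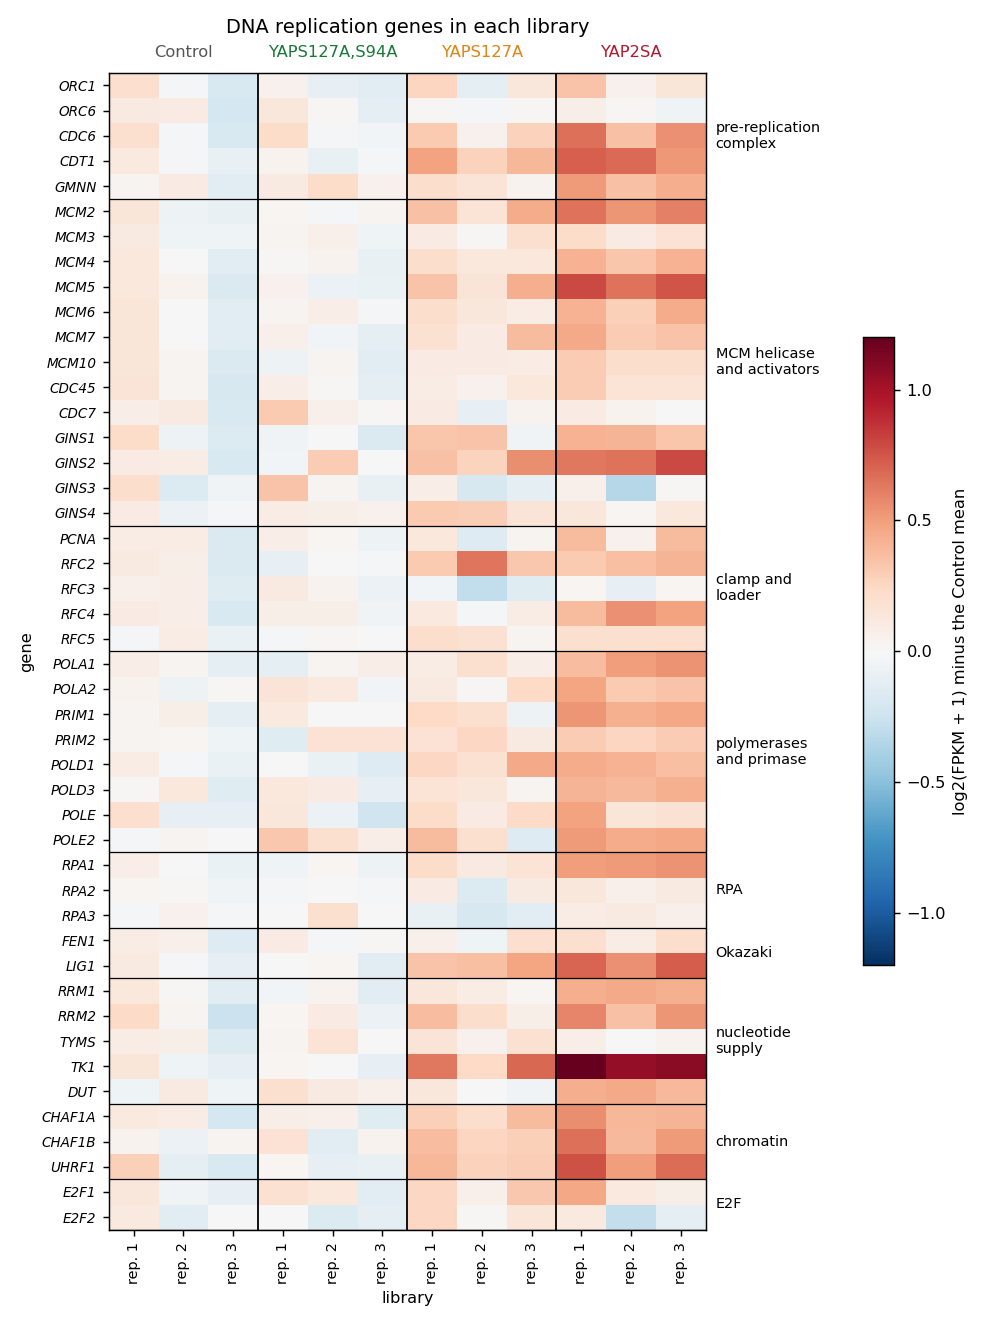
Log2(FPKM + 1) of each of the 46 genes (rows, grouped by role) in each of the 12 libraries (columns), minus the mean of the 3 Control libraries, with red above and blue below it. The YAP2SA columns are red for most genes, the YAPS127A columns less so, and the column of Control replicate 3 is mostly pale blue, being the lowest of Control for 39 genes.

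Summed over the 46 genes, Control libraries held 1950, 1836 and 1637 FPKM and YAPS127A,S94A libraries held 1873, 1847 and 1737 FPKM. YAPS127A libraries held 2106, 1930 and 2088 FPKM, and YAP2SA libraries held 2490, 2277 and 2410 FPKM. YAP2SA thus lay above every other library, whereas YAPS127A overlapped Control, its lowest library lying below the highest of Control. The spread was narrow, with a median coefficient of variation across the genes of 9.41% in Control, 7.05% in YAPS127A, 6.28% in YAPS127A,S94A and 4.99% in YAP2SA.

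Licensing of origins was represented by 5 genes, of which CDT1, CDC6 and GMNN were higher in YAP2SA and ORC1 and ORC6 did not pass the test. CDT1, the loader of the MCM helicase (chr16:88870197-88875666, plus strand, GRCh37), held 25.3, 22.8 and 21.7 FPKM in Control and 38.7, 37.9 and 33.6 FPKM in YAP2SA. Its YAPS127A libraries held 32.9, 28.4 and 30.9 FPKM, and its YAPS127A,S94A libraries 23.9, 21.8 and 22.8 FPKM. Both forms with intact S94 thus lay above Control and above the S94A form with no overlap. The log2 difference between YAP2SA and Control was 0.64 ± 0.08 (SE, n = 3 per group, limma adjusted p = 7.06e-05). CDC6, the ATPase that works with CDT1, held 35.8, 30.8 and 27.4 FPKM in Control and 49.98, 40.01 and 46.2 FPKM in YAP2SA, a log2 difference of 0.52 ± 0.12 (SE, limma adjusted p = 0.0052). In YAPS127A it held 39.1, 32.2 and 37.9 FPKM and in YAPS127A,S94A 36.5, 30.6 and 30.5 FPKM, so both overlapped Control. GMNN, the inhibitor of CDT1, was higher together with its target, from 35.4, 37.1 and 31.4 FPKM in Control to 49.7, 44.3 and 47.0 FPKM in YAP2SA (log2 difference 0.43 ± 0.08, SE, limma adjusted p = 0.000984). Its YAPS127A libraries held 40.2, 38.6 and 35.5 FPKM and its YAPS127A,S94A libraries 37.4, 40.3 and 35.9 FPKM. The origin recognition subunit ORC6 had a log2 difference of 0.01 with a 95% interval from -0.19 to 0.21, and ORC1 one of 0.18 with an interval from -0.09 to 0.45. Without the library labelled Control replicate 3, the difference of ORC6 was -0.10.

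The MCM helicase and its activators made up 13 genes, of which 8 were higher in YAP2SA: MCM2, MCM4, MCM5, MCM6, MCM7, MCM10, GINS1 and GINS2. MCM10 and GINS1 lost the call without the library labelled Control replicate 3, with limma adjusted p of 0.105 and 0.0877. MCM5, a subunit of the helicase ring (chr22:35796127-35821424, plus strand), held 47.3, 44.4 and 38.2 FPKM in Control and 75.5, 68.3 and 73.3 FPKM in YAP2SA. It held 55.0, 48.0 and 58.6 FPKM in YAPS127A and 44.8, 41.0 and 40.9 FPKM in YAPS127A,S94A. The YAP2SA libraries stood clear of all others, with a log2 difference from Control of 0.73 ± 0.09 (SE, limma adjusted p = 8.2e-05). MCM7, the most abundant subunit per length, held 167, 150 and 137 FPKM in Control and 207, 187 and 191 FPKM in YAP2SA (log2 difference 0.37 ± 0.09, SE, limma adjusted p = 0.0078). Its values were 171, 161 and 196 FPKM in YAPS127A and 157, 148 and 140 FPKM in YAPS127A,S94A, with the former reaching into the range of YAP2SA. Over the 6 subunits of the ring, log2 differences ran from 0.73 for MCM5 and 0.59 for MCM2 to 0.17 for MCM3, whose adjusted p by limma was 0.06. In the GINS complex, GINS2 had a log2 difference of 0.69 and GINS1 one of 0.39. GINS3 and GINS4 did not pass the test, with log2 differences of -0.09 (95% interval from -0.42 to 0.24) and 0.10 (from -0.05 to 0.25). CDC45 had a log2 difference of 0.21 (limma adjusted p = 0.079) with all 3 YAP2SA libraries above Control, and CDC7 one of 0.05 with overlapping libraries. The difference of CDC7 was -0.04 without the library labelled Control replicate 3.

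**Figure D2:**
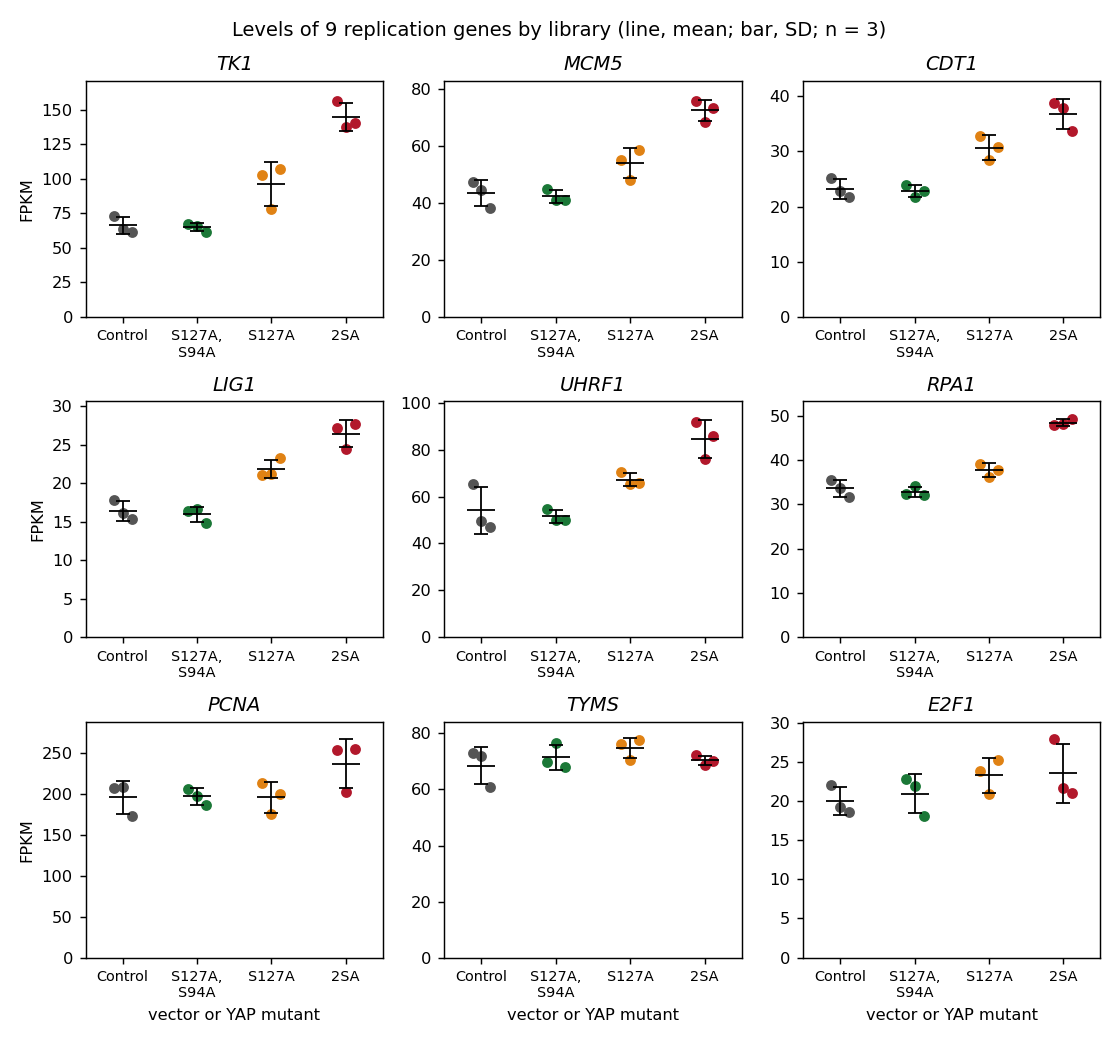
FPKM (vertical axis, from 0) of 9 replication genes in the 3 libraries of Control, YAPS127A,S94A, YAPS127A and YAP2SA cells, with the mean and SD of each group. For TK1, MCM5, CDT1, LIG1, UHRF1 and RPA1 the YAP2SA libraries lie above all others, whereas for PCNA, TYMS and E2F1 the groups overlap.

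Among clamp and clamp loader genes, RFC2, RFC4 and RFC5 were higher in YAP2SA (RFC5 not without the library labelled Control replicate 3), and PCNA and RFC3 did not pass the test. PCNA, the sliding clamp and the most abundant of the 46 genes per length (chr20:5095599-5107272, minus strand), held 207, 208 and 172 FPKM in Control and 254, 202 and 254 FPKM in YAP2SA. It held 213, 176 and 199 FPKM in YAPS127A and 206, 198 and 186 FPKM in YAPS127A,S94A. The second YAP2SA library lay within the range of Control, and the log2 difference of 0.27 (95% interval from 0.02 to 0.52) had a limma adjusted p of 0.0744, which was 0.016 when that library was left out and between 0.016 and 0.246 over all alternatives. RFC4, a subunit of the ring that opens the clamp, held 44.5, 43.8 and 36.5 FPKM in Control and 54.1, 61.0 and 58.4 FPKM in YAP2SA (log2 difference 0.47 ± 0.08, SE, limma adjusted p = 0.000814). YAPS127A, at 44.95, 40.6 and 44.2 FPKM, and YAPS127A,S94A, at 43.5, 43.6 and 40.3 FPKM, overlapped Control for this gene. RFC3, of the same ring, had a log2 difference of -0.01 (95% interval from -0.20 to 0.17).

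Of the 8 polymerase and primase genes, 7 were higher in YAP2SA, with log2 differences in the narrow range from 0.29 for PRIM2, whose call was lost without the library labelled Control replicate 3, to 0.47 for POLA1 and POLE2 and 0.48 for PRIM1. PRIM1, the catalytic subunit of primase, held 23.4, 24 and 21.2 FPKM in Control and 33.5, 31.0 and 31.9 FPKM in YAP2SA (log2 difference 0.48 ± 0.08, SE, limma adjusted p = 0.000823). Its YAPS127A libraries, at 27.2, 26.1 and 21.9 FPKM, and its YAPS127A,S94A libraries, at 24.8, 22.9 and 22.8 FPKM, overlapped Control. POLD1, the catalytic subunit of polymerase delta, held 33.6, 31.2 and 29.8 FPKM in Control and 43.2, 42.5 and 40.8 FPKM in YAP2SA, a log2 difference of 0.41 ± 0.08 (SE, limma adjusted p = 0.00142). It held 37.7, 35.8 and 43.7 FPKM in YAPS127A and 31.5, 29.8 and 28.2 FPKM in YAPS127A,S94A, so YAPS127A lay above this form and Control. Between YAPS127A and Control the log2 difference was 0.30 (limma adjusted p = 0.0463). That call was lost under several alternatives, including without the library labelled Control replicate 3. POLE, the catalytic subunit of polymerase epsilon, had a log2 difference of 0.27 (limma adjusted p = 0.103).

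The RPA trimer, which coats single-stranded DNA, was uneven. RPA1, its large subunit, held 35.5, 33.7 and 31.6 FPKM in Control and 47.9, 48.2 and 49.4 FPKM in YAP2SA, a log2 difference of 0.52 ± 0.05 (SE, limma adjusted p = 1.85e-05). It held 39.2, 36.3 and 37.8 FPKM in YAPS127A and 32.3, 34.2 and 32.1 FPKM in YAPS127A,S94A, so YAPS127A lay between Control and YAP2SA with no overlap. RPA2, the second subunit, held 43.3, 43.1 and 41.3 FPKM in Control and 47.0, 44.4 and 45.8 FPKM in YAP2SA, with 45.7, 37.9 and 45.9 FPKM in YAPS127A and 42.1, 42.8 and 41.8 FPKM in YAPS127A,S94A. Neither RPA2 (log2 difference 0.10, 95% interval from -0.05 to 0.25) nor RPA3 (0.09, from -0.04 to 0.22) passed the test, although the 3 YAP2SA libraries lay just above Control for both. The upper bounds of these intervals lie below the lower bound for RPA1, which was 0.40.

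The lagging strand genes also differed from each other. LIG1, DNA ligase 1 (chr19:48618702-48673860, minus strand), held 17.8, 16.2 and 15.3 FPKM in Control and 27.3, 24.5 and 27.7 FPKM in YAP2SA. Its YAPS127A libraries held 21.1, 21.3 and 23.2 FPKM and its YAPS127A,S94A libraries 16.3, 16.7 and 14.8 FPKM, giving 3 separate levels. The log2 difference between YAP2SA and Control was 0.66 ± 0.08 (SE, limma adjusted p = 4.35e-05). FEN1, the flap nuclease that acts just before the ligase, held 101, 98.7 and 85.1 FPKM in Control and 108, 101 and 110 FPKM in YAP2SA. At 98.7, 91.4 and 109 FPKM in YAPS127A and 102, 92.9 and 95.8 FPKM in YAPS127A,S94A, it overlapped in all groups, and its log2 difference of 0.17 (95% interval from -0.02 to 0.35) did not pass the test.

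Nucleotide supply held both the largest difference of the list and 1 of the smallest. TK1, the cytosolic thymidine kinase of S phase (chr17:76170172-76183314, minus strand), held 73.3, 63.6 and 61.7 FPKM in Control and 157, 138 and 141 FPKM in YAP2SA. It held 103, 78.2 and 107 FPKM in YAPS127A and 67.0, 66.1 and 61.6 FPKM in YAPS127A,S94A. The order was the same in every library, with Control and the S94A form together, YAPS127A above them and YAP2SA highest. The ratio of mean FPKM between YAP2SA and Control was 2.19, and the log2 difference was 1.12 ± 0.11 (SE, limma adjusted p = 1.71e-05). RRM2, the regulated subunit of ribonucleotide reductase, held 86.4, 74.95 and 61.03 FPKM in Control and 111, 94.01 and 106 FPKM in YAP2SA (log2 difference 0.49 ± 0.12, SE, limma adjusted p = 0.00822). Its YAPS127A libraries, at 95, 85.3 and 76.9 FPKM, overlapped Control, as did its YAPS127A,S94A libraries at 74.8, 78.4 and 69.7 FPKM. Its partner RRM1 and the dUTPase DUT were also higher, with log2 differences of 0.44 and 0.42. TYMS, thymidylate synthase, makes the same nucleotide as TK1 by the de novo route. It held 72.9, 71.9 and 60.8 FPKM in Control, 76.1, 70.6 and 77.6 FPKM in YAPS127A, 69.8, 76.6 and 68.1 FPKM in YAPS127A,S94A and 72.2, 68.7 and 70.3 FPKM in YAP2SA. All 4 groups overlapped, and the log2 difference between YAP2SA and Control was 0.04 (95% interval from -0.12 to 0.21), or -0.04 without the library labelled Control replicate 3.

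All 3 chromatin genes were higher in YAP2SA. UHRF1, which brings the maintenance methyltransferase to new DNA (chr19:4903092-4962165, plus strand), held 65.6, 49.6 and 47.1 FPKM in Control and 91.9, 76.2 and 85.8 FPKM in YAP2SA (log2 difference 0.65 ± 0.11, SE, limma adjusted p = 0.00095). It held 70.7, 65.2 and 66.0 FPKM in YAPS127A and 54.6, 49.9 and 50.1 FPKM in YAPS127A,S94A. The first Control library lay well above the other two and inside the range of YAPS127A. CHAF1A and CHAF1B, subunits of the histone chaperone CAF-1, had log2 differences of 0.45 and 0.52.

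The E2F factors themselves did not pass the test. E2F1 held 22.1, 19.3 and 18.6 FPKM in Control and 27.9, 21.7 and 21.0 FPKM in YAP2SA, a log2 difference of 0.22 (95% interval from -0.06 to 0.49, limma adjusted p = 0.183). Its YAPS127A libraries held 23.8, 20.9 and 25.2 FPKM and its YAPS127A,S94A libraries 22.8, 21.9 and 18.1 FPKM. E2F2, the lowest of the 46 genes, held 3.65, 2.94 and 3.30 FPKM in Control, 4.08, 3.33 and 3.73 FPKM in YAPS127A, 3.27, 2.82 and 2.96 FPKM in YAPS127A,S94A and 3.65, 2.51 and 2.95 FPKM in YAP2SA. Its YAP2SA and Control libraries overlapped, with a log2 difference of -0.10 (95% interval from -0.35 to 0.15). An E2F word stands upstream of both genes, and a difference of about the size of CDT1, 0.64, lies outside both intervals.

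**Figure D3:**
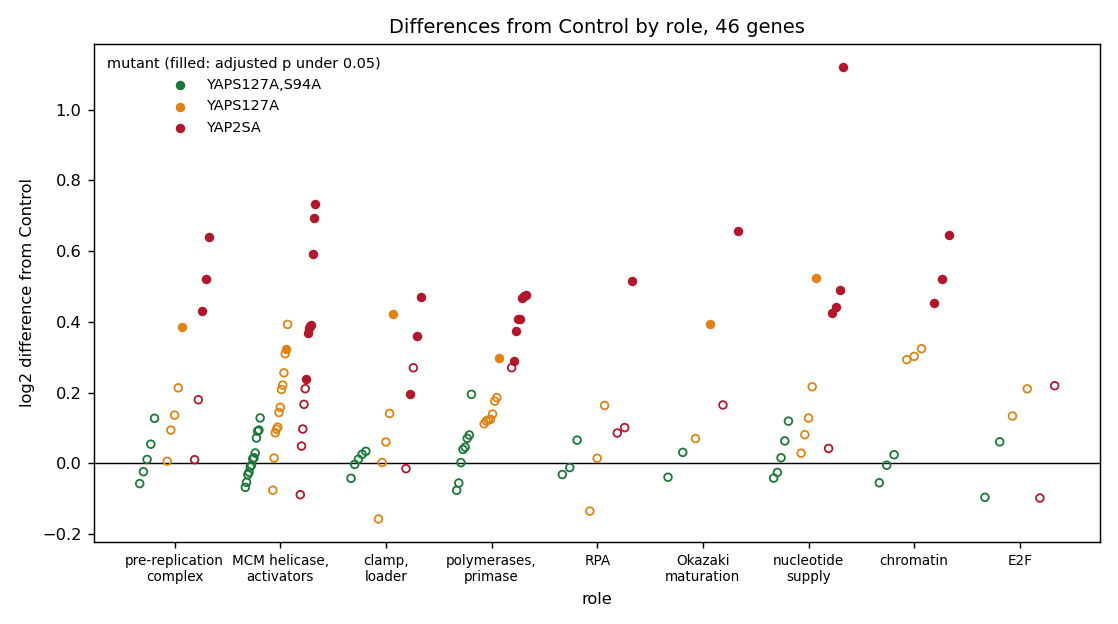
Log2 difference from Control (vertical axis) of each of the 46 genes by role, for YAPS127A,S94A, YAPS127A and YAP2SA, with filled points at an adjusted p under 0.05. The YAPS127A,S94A points stay between -0.10 and 0.20 with none filled, 6 YAPS127A points are filled, and 30 YAP2SA points are filled, TK1 highest at 1.12.

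The mutant with only S127A changed was compared with Control to ask how the genes responded when S381 was left intact. By limma, 6 genes were higher in YAPS127A than in Control, CDT1, LIG1, MCM2, POLD1, RFC2 and TK1, which is 13.0% of the list where 4.56% of all loci were higher. None was lower at an adjusted p under 0.05, and 1 was lower at an unadjusted p under 0.05, RPA3. Of all loci, 1.75% were lower. The median log2 difference was 0.14 against -0.0023 for all loci, or 0.10 against -0.01 without the library labelled Control replicate 3. TK1 had the largest difference, 0.52 ± 0.11 (SE, limma adjusted p = 0.0215), followed by RFC2, a clamp loader subunit, at 0.42 ± 0.10 (adjusted p = 0.0266). The 3 YAPS127A libraries lay above all Control libraries for 15 genes, as they did for 11.6% of all loci, and below them for RPA3. All 6 genes were also among the 30 that were higher in YAP2SA, with the same Control libraries in both comparisons. Only 1 of these calls, LIG1, remained without the library labelled Control replicate 3 or without Control replicate 2, and 2, LIG1 and RFC2, remained without YAPS127A replicate 1. The 1 gene called without the library labelled Control replicate 3 was 2.17% of the list, where 3.39% of all loci were higher.

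The part of TEAD binding could be read only in the S127A form, since by the sample titles no sequenced group carried S94A together with S381A. YAPS127A itself had only 6 genes higher than Control, or 1 without the library labelled Control replicate 3, so few calls could be lost. YAPS127A,S94A libraries did not differ from Control by limma for any of the 46 genes, higher or lower, at an adjusted p under 0.05, nor at an unadjusted p under 0.05. This comparison had few calls anywhere, with 0.0864% of all loci higher and 0.093% lower. The log2 differences of the 46 genes lay between -0.10 and 0.20 with a median of 0.01, or -0.05 without the library labelled Control replicate 3. Only POLE2, a subunit of polymerase epsilon, had all YAPS127A,S94A libraries above Control, where 4.7% of all loci did. For TK1 the log2 difference was -0.03 with a 95% interval from -0.28 to 0.23, and for CDT1, LIG1 and MCM5 the FPKM values of both groups overlapped as given above.

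When YAPS127A was set directly against its S94A form, 8 genes were higher by limma, 17.4% of the list against 6.36% of all loci. These were CDT1, LIG1, MCM2, MCM5, POLD1, RFC2, RPA1 and TK1. None was lower at an adjusted p under 0.05, 1 was lower at an unadjusted p under 0.05, and 4.31% of all loci were lower. The median log2 difference was 0.15 against -0.01 for all loci. TK1 again had the largest, 0.55 ± 0.11 (SE, limma adjusted p = 0.0121), then RFC2 at 0.47 ± 0.10 (adjusted p = 0.012) and LIG1 at 0.43 ± 0.08 (adjusted p = 0.00469). RPA3, the small RPA subunit, went the other way, at 27.4, 25.4 and 26.5 FPKM in YAPS127A and 29.2, 33.4 and 29.2 FPKM in YAPS127A,S94A, with no overlap and a limma adjusted p of 0.0565. The count fell to 3 without YAPS127A,S94A replicate 3 and to 5 without YAPS127A replicate 1, YAPS127A,S94A replicate 1, YAPS127A,S94A replicate 2 or YAP2SA replicate 3.

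This comparison and that of YAP2SA with Control have no library in common, so the differences of each gene could be set side by side. Of the 46 genes, 43 were above 0 in YAP2SA against Control, 38 in YAPS127A against its S94A form and 37 in both. The count in both was thus largely fixed by the separate counts. The 8 genes higher in YAPS127A than in its S94A form were all among the 30 higher in YAP2SA than in Control, already 65.2% of the list. Both comparisons came from 1 fit of all 12 libraries with a shared estimate of the spread of each gene, so their calls are not independent. Across genes, which are not independent replicates, Pearson's r was 0.66 and Spearman's rho 0.58, with r of 0.60 without TK1. Among the genes farther from the trend were DUT and RFC4, with log2 differences of 0.42 and 0.47 in YAP2SA against -0.09 and 0.03 between YAPS127A and its S94A form, and RFC2, with 0.36 and 0.47. These were picked after their values were seen.

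**Figure D4:**
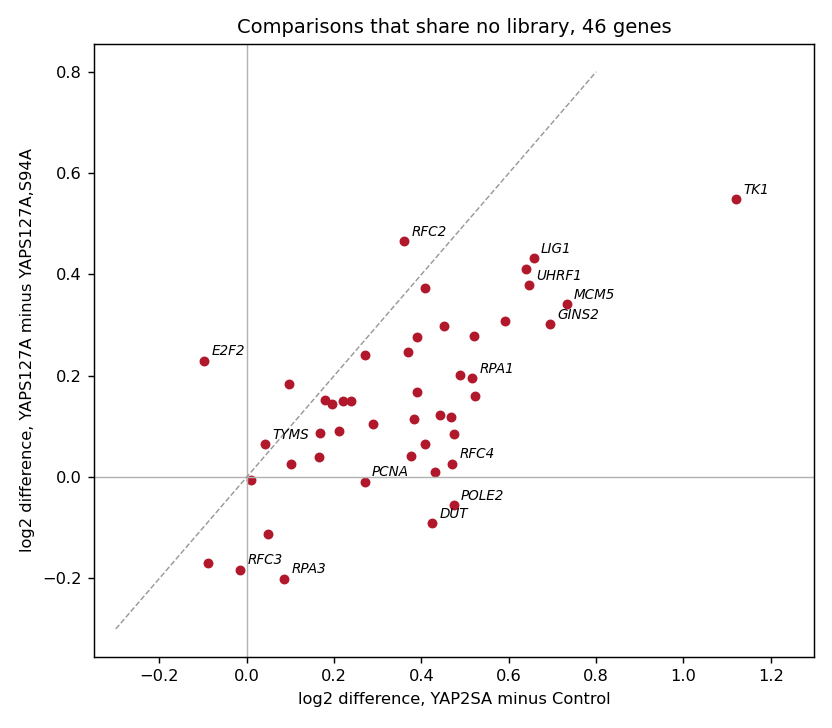
Log2 difference between YAP2SA and Control (horizontal axis) against that between YAPS127A and YAPS127A,S94A (vertical axis) for the 46 genes, with the dashed line marking equal differences. Of the 46 points, 43 are above 0 on the horizontal axis, 38 on the vertical axis and 37 on both. Most lie below the dashed line, with TK1 at 1.12 and 0.55.

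YAP2SA was then compared with YAPS127A, to see what the additional S381A change added. By limma, 17 genes were higher in YAP2SA, 37.0% against 18.3% of all loci. None was lower at an adjusted p under 0.05, 1 was lower at an unadjusted p under 0.05, and 14.5% of all loci were lower. The median log2 difference was 0.22 against 0.02 for all loci. TK1 was the largest again at 0.60 ± 0.11 (SE, limma adjusted p = 0.00235), and MCM5 followed at 0.42 ± 0.09 (adjusted p = 0.00497). Several genes with little difference in YAPS127A were called here, among them DUT, at 73.1, 66.1 and 64.3 FPKM in YAPS127A and 90.1, 91.2 and 87.0 FPKM in YAP2SA. RPA3 was the only one of the 17 that was not among the 30 higher in YAP2SA than in Control. The count was 10 without YAPS127A replicate 2 or without YAP2SA replicate 1, and 11 without YAP2SA replicate 3.

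Against YAPS127A,S94A, YAP2SA was higher for 28 genes by limma, 60.9% against 23.2% of all loci. None was lower, also at an unadjusted p under 0.05, while 20.3% of all loci were lower. The median log2 difference was 0.34 against 0.00 for all loci. TK1, with a log2 difference of 1.15, was the only gene past 2-fold, as 7.81% of all loci were upwards with the test. All 28 were also called against Control, where PRIM2 and POLE2 were called in addition. Neither of these groups holds the library labelled Control replicate 3.

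Other replication genes outside the list were read in the same way. Of 42 genes, 20 were higher and 3 lower in YAP2SA than in Control by limma, 47.6% and 7.14% against 22.9% and 19.5% of all loci, with a median log2 difference of 0.25. Without the library labelled Control replicate 3, 17 were higher and 2 lower with a median of 0.17, and DBF4B and POLD4 lost their calls. The largest rises were DBF4B, a partner of CDC7 kinase, at 0.64, the chromatin remodeler HELLS at 0.62 and DTYMK, the kinase that acts after TK1 and TYMS, at 0.59. The 3 that fell were the topoisomerase TOP1 by 0.90 on the log2 scale, the histone chaperone ASF1A by 0.57 and the polymerase delta subunit POLD4 by 0.41. TOP1 held 123, 133 and 118 FPKM in Control and 64.3, 65.5 and 68.7 FPKM in YAP2SA, so the groups stood far apart in the direction opposite to the helicase genes. In YAPS127A none of the 42 was higher than in Control by limma (5 at an unadjusted p under 0.05) and 1, ASF1A, was lower, against 4.56% and 1.75% of all loci. None was higher or lower in YAPS127A,S94A by limma, also at an unadjusted p under 0.05.

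For regulators of E2F, RB and S phase entry the counts were near those of all loci. The list mixes genes that drive S phase entry with genes that restrain it, so counts by direction do not show whether its members responded. Of 30 genes, 28 were tested, 8 were higher and 5 lower in YAP2SA than in Control by limma, 28.6% and 17.9% against 22.9% and 19.5% of all loci. The median log2 difference was 0.06, or -0.03 without the library labelled Control replicate 3, when 7 were higher and 4 lower. MYBL2, an E2F target and transcription factor of the later cell cycle, had a log2 difference of 0.93, the repressor E2F7 one of 0.91 and the CDK inhibitor CDKN1A one of 0.62. The CDK inhibitor CDKN1C fell by 3.23 on the log2 scale, from 22.3, 22.6 and 20.6 FPKM in Control to 1.51, 1.59 and 1.201 FPKM in YAP2SA. CDK6 and CCNE1, a cyclin of the G1 to S transition, fell by 0.58 and 0.405. Of 28 mitotic genes, 25 were higher by limma, 89.3% against 22.9% of all loci, and none lower, also at an unadjusted p under 0.05, against 19.5% of all loci, with a median log2 difference of 0.47, compared with 0.39 for the 46 replication genes. Without the library labelled Control replicate 3, 23 were higher with a median of 0.42. The largest were ANLN at 1.08, CEP55 at 0.97 and CDC20 at 0.95, genes of cytokinesis and, for CDC20, of the exit from mitosis.

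The level of a gene was only loosely related to its difference. Across the 46 genes, the log2 mean FPKM in Control and the log2 difference between YAP2SA and Control had a Pearson's r of 0.28 and a Spearman's rho of 0.19, with the Control libraries in both measures. Exons of 23 of the genes overlap another annotated gene on GRCh37, 18 of them a gene on the opposite strand, such as ENOSF1 for TYMS, SMYD4 for RPA1 and AP4M1 for MCM7. Since the strand setting of the counting is not given in the sources used here, reads of such pairs may not be told apart. A further limit applies to 10 genes with named pseudogenes, among them DUT with 8, PCNA with 3 and RRM2 with 3, whose reads could be shared between copies.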

How the data were processed

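RNA of A375 cells was sequenced in 4 groups of 3 libraries. Per the labels and methods, the authors aligned reads to hg19 with bowtie2 2.0.0 and tophat 2.0.4 and assembled transcripts with cufflinks 2.0.2. They deposited log2 values, log2(FPKM + 1), per locus and library. FPKM values were obtained by the inverse of the deposited log2 values. Read counts and depth were not used here, so count tests were not applied and only the spread between libraries gives the precision. After removal of 3 duplicate entries from 31588, 31585 loci were left.

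The log2 values of the 12 libraries were modelled together in limma (version 3.58.1, R 4.3.3), with group as the only factor and an intensity trend, for 6 comparisons, on loci with at least 1 FPKM in at least 3 libraries. Benjamini-Hochberg adjustment covered all 15055 loci, and the threshold was 0.05. Because 1 was added to the FPKM before the logarithm, log2 differences understate the change of low genes. The study's own differential test on reads was not repeated. In simulated data for YAP2SA against Control with 15055 loci, 50 of 50 loci were called at each of log2 changes of 1 and -1, 39 of 50 at 0.5 and 36 of 50 at -0.5, and 8 unchanged loci were called. The changed loci were drawn only from those with a higher Control level and without the widest spread, so noisier loci were not covered. Far fewer loci were changed than were called in the real comparison, and changes below 0.5, such as the median of 0.39, were not simulated.

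The members and lists were chosen with earlier results of these data known. Values in every library are given for the most abundant gene and the gene with the largest difference in YAP2SA of each role, for genes past 2-fold, for genes called in YAPS127A,S94A against Control, and for CDC6, CDT1, GMNN, PCNA, RRM2, TYMS, E2F1 and E2F2; other genes outside this rule were named after their values were seen, and genes of other lists are the 3 largest rises and falls called in YAP2SA against Control. Gene positions come from GENCODE on GRCh37, and promoters from RefSeq on GRCh38.p14. The alternatives were another pseudocount (0.1), other filters, median-ratio scaling, quantile normalization, a replicate block, no intensity trend, summed loci, only the 6 libraries compared, an adjusted p of 0.01 and each library left out.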

Additional observations from a re-analysis of the deposited data

How the results depend on the processing

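The number of genes higher in YAP2SA than in Control stayed between 25 and 32 under every alternative, and 25 genes were called in all of them, as were 24 against YAPS127A,S94A, 8 against YAPS127A and 2 (CDT1 and LIG1) between YAPS127A and YAPS127A,S94A. No gene was called in every setting between YAPS127A and Control. There the count of 6 became 0 at an adjusted p of 0.01 and 0 when only the 6 libraries compared were fitted, and ranged from 1 to 8 when each library was left out. For YAP2SA against YAPS127A the count of 17 became 8 at an adjusted p of 0.01 and 11 under quantile normalization, with a range of 10 to 19 when each library was left out. The count of genes lower there, 0, became 1 under quantile normalization (TYMS), and ranged from 0 to 1 with libraries left out. For YAPS127A against YAPS127A,S94A the count of 8 became 2 at an adjusted p of 0.01 and 4 with only the 6 libraries compared, with a range of 3 to 10 when each library was left out, and the count of lower genes became 1 (RPA3) with a filter at 5 FPKM and 1 under median-ratio scaling. TYMS changed sign between YAP2SA and Control, to -0.0739 under quantile normalization, and lay between -0.0408 and 0.0887 when each library was left out. A stricter threshold calls fewer genes by construction, and the cause of the other changes was not tested. Depth is unknown.

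Replicate numbers were shared by the groups. Summed over the replication genes, replicate 1 was the highest library of every group. It held 1950 FPKM in Control, 2106 in YAPS127A, 1873 in YAPS127A,S94A and 2490 in YAP2SA. The lowest was replicate 3 in Control and YAPS127A,S94A, and replicate 2 in YAPS127A and YAP2SA. By correlation, the numbers did not clearly pair the libraries. Correlations of the deviations of same-numbered libraries lay between -0.149 and 0.163 with a median of 0.0116, and 5 of the 12 libraries correlated best with their own number. With the number as a replicate block, 32 genes were higher in YAP2SA than in Control, 8 in YAPS127A than in Control, 0 in YAPS127A,S94A than in Control, 21 in YAP2SA than in YAPS127A with 1 lower (E2F2), 9 in YAPS127A than in YAPS127A,S94A, and 32 in YAP2SA than in YAPS127A,S94A.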
